A study of Mus musculus with 22 samples.

Results

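Pga5, Cym, S100g, Isx, Slc28a2, Nepn and Cdx2 are genes of the stomach and intestine, and they were chosen by their measured RNA levels with tetrabromobisphenol A (TBBPA) against vehicle at day 28 of embryoid body culture. They are 7 of the 19721 genes listed in at least 1 of the 22 libraries (entries 58803, 229697, 12309, 71597, 269346, 66650 and 12591 in the order above, on chromosomes 19, 3, X, 8, 2, 10 and 5). TBBPA is a brominated flame retardant, and embryoid bodies are cell aggregates in which embryonic stem (ES) cells differentiate. All libraries came from the J1 mouse ES cell line. At each of days 4, 9, 12, 18 and 28, read from the sample titles, 1 library had been exposed to 10 nM TBBPA, 1 to 100 nM TBBPA and 2 to the vehicle, 0.1% dimethyl sulfoxide (DMSO). A further 2 libraries were of ES cells with no treatment. The labels name 1 cell line, no genetic change, and neither the culture nor the batch behind a library. The series addressed how gene expression during embryoid body development depends on TBBPA.

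The gut tube is endoderm that is patterned along its length, with stomach forming in front and intestine behind. Cdx2, a caudal-type homeobox factor, is needed for intestinal identity in the mouse and also acts in the trophoblast and the posterior body. Isx is a homeobox factor of the intestinal epithelium that represses genes of carotenoid uptake and cleavage. Pga5 is a pepsinogen and Cym is chymosin, both aspartic proteases that the stomach secretes as inactive precursors, chymosin mainly in suckling animals. S100g is calbindin-D9k, a calcium-binding protein of the intestinal epithelium and a known vitamin D target. Slc28a2 is a sodium-coupled transporter of purine nucleosides, and Nepn encodes nephrocan, a leucine-rich repeat protein of midgut and hindgut endoderm in the mouse embryo.

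The upstream windows of the genes are shown because the genes were chosen for a common day but differed in their time courses. RefSeq windows (build GRCm38.p6) were at hand for 6 of the 7 genes. The 250 bases before the start are printed 5′ to 3′ on the gene's strand for Nepn (chr10:52391358-52391607, plus strand), S100g (chrX:162964600-162964849, minus strand), Cdx2 (chr5:147307250-147307499, minus strand) and Cym (chr3:107221733-107221982, minus strand). Capitals mark matches, on either strand, to the letters of 4 motifs of gut and core promoter factors.
Nepn: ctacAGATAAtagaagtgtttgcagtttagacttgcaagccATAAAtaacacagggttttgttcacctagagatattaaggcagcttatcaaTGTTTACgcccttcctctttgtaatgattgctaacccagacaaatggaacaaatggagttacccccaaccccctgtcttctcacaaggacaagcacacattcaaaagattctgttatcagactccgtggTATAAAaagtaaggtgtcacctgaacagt
S100g: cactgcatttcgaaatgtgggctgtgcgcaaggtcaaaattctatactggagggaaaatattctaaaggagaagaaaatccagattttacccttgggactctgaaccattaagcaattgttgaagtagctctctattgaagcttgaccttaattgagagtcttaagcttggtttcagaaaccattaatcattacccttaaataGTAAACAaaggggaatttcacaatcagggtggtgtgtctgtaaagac
Cdx2: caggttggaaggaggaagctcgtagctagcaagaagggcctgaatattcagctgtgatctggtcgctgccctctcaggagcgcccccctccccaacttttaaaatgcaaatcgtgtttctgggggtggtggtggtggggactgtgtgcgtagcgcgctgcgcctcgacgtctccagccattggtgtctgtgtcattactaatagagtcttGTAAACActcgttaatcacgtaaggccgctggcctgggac
Cym: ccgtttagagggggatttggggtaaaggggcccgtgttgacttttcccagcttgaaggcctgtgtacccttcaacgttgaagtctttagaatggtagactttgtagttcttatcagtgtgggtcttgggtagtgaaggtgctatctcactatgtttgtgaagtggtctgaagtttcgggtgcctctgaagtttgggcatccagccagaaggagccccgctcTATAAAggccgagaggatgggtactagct
A forkhead motif, spelled TGTTTAC, stood in 3 of the 6 windows (Nepn, S100g and Cdx2), and 3.17% of the 32851 windows of the table hold it. A Cdx motif, spelled TTTAT, stood in 3 of 6 (Cym, Slc28a2 and Nepn) against 37.3% of all windows, and it overlaps the next motif in Cym and Nepn. The TATA box, spelled TATAAA and present in 12.4% of all windows, began 29 bases before the start in Cym and in Nepn. A GATA motif, spelled AGATAA and present in 9.99% of all windows, stood in Slc28a2 and Nepn. RefSeq also lists a start further upstream for Nepn and Slc28a2 than the one these windows precede. The window of Isx (chr8:74872924-74873173, plus strand) held none of these letters. A match is a run of letters and not a measured binding site.

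Total estimated counts were 18158583 to 18998141 per library. Levels are in CPM, counts scaled to the TMM-adjusted library size. The ES libraries had 1250 to 1420 CPM of Pou5f1 and 1140 to 1290 CPM of Nanog, factors of the ES state, and every embryoid body library had less of both. Chi-square per gene, which counting noise alone puts at 1, ranged over the days between 1.61 and 3.25 for the DMSO pairs and between 3.14 and 7.67 for the pairs of doses, and reached 21.2 for the ES pair. No label assigns libraries to separate cultures. The p-values below therefore rest on a spread between libraries that may be technical. Genes of the stomach and intestine lists, which are not all markers of mature cells, were present in part. Of 24 other stomach genes in the tables, 10 stayed under 1 CPM in every library, among them Atp4b of the parietal cell proton pump, Gif (intrinsic factor), Gast (gastrin) and Tff2. Of 36 other intestine genes, 13 did so, among them the brush border enzymes Sis, Lct and Alpi and the fatty acid binding proteins Fabp1 and Fabp2. The other 14 stomach and 23 intestine genes reached at least 1 CPM in some library. On the stomach list the highest levels were in Gkn2 (133 CPM), Sox21 (79.2) and Gkn1 (61.1). On the intestine list they were in Anpep (103), Gpa33 (97.0) and Slc15a1 (29.2). At day 28, Sox21 reached at most 60.8 CPM, Gpa33 9.6 CPM and Slc15a1 2.77 CPM, so their peaks lay in other libraries. The intestine list summed to 171 to 199 CPM in ES cells, against 186 to 187 CPM in the day 28 DMSO libraries. The 7 genes are therefore described by name, and no stomach or intestinal cell is assigned to them.

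At day 28, 6 of the 7 genes were higher with TBBPA than with DMSO and Cym was lower. In none of the 7 did the TBBPA and DMSO libraries overlap. Both TBBPA libraries lay above both DMSO libraries for 28.9% of the 16383 genes tested, and below them for 25.1%. Since this contrast chose the genes, these values are a description with no test, and nothing is read from the count. In RNA from whole embryoid bodies, fewer cells of a type and less RNA per cell cannot be told apart.

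**Figure D1:**
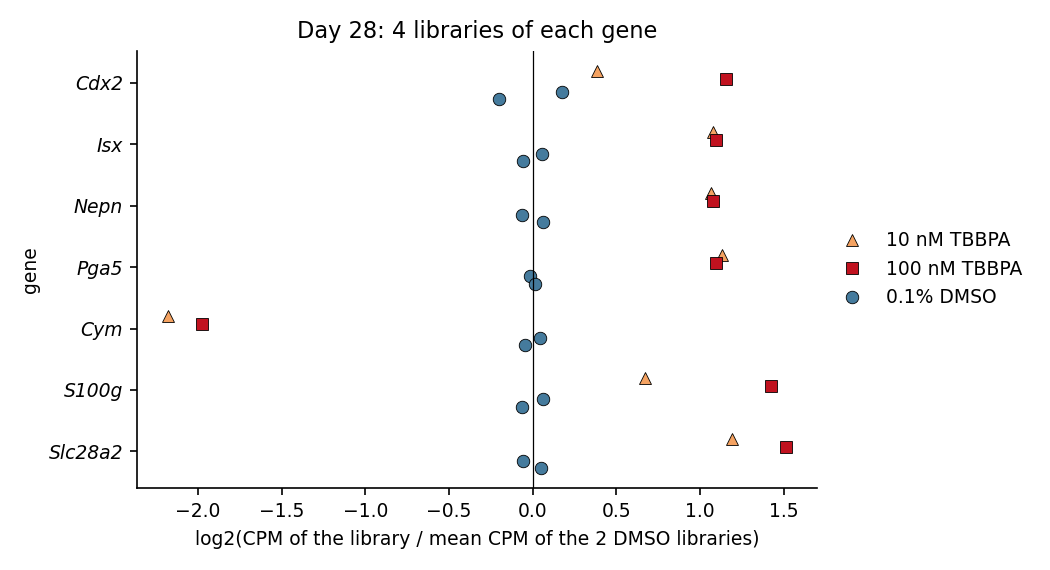
Level of each gene at day 28 in the 10 nM TBBPA, 100 nM TBBPA and DMSO libraries, as log2 of CPM over the mean of the 2 DMSO libraries; each point is 1 library. Cym lies to the left of 0 with TBBPA and the other genes to the right, and the doses are furthest apart in S100g and Cdx2.

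Of the homeobox factors, Cdx2 had 5.09 CPM at 10 nM and 8.68 CPM at 100 nM TBBPA at day 28. The DMSO libraries of that day had 4.40 and 3.39 CPM. The 10 nM library lay just above the higher DMSO library, and the 100 nM library stood apart from the other 3. The ratio of means, TBBPA over DMSO, was 1.77. Isx had 9.77 and 9.91 CPM with 10 nM and 100 nM TBBPA, against 4.80 and 4.45 CPM with DMSO, a ratio of 2.13. Both doses gave nearly the same Isx level. The leucine-rich repeat gene Nepn had 8.20 and 8.27 CPM with TBBPA, against 3.75 and 4.09 CPM with DMSO, a ratio of 2.10. Again the doses were alike.

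Of the proteases, Pga5 had 137 and 134 CPM with 10 nM and 100 nM TBBPA, against 62.0 and 63.1 CPM with DMSO, a ratio of 2.17. These were its highest levels of the series. Cym had 2.09 and 2.40 CPM with TBBPA, against 9.75 and 9.15 CPM with DMSO. The mean of Cym with DMSO was 4.21 times that with TBBPA, from 41 and 47 counts with TBBPA and 195 and 181 with DMSO. The 2 stomach proteases thus lay on opposite sides of their controls in the same libraries.

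Of the absorptive proteins, S100g had 35.3 CPM at 10 nM and 59.6 CPM at 100 nM TBBPA, against 23.1 and 21.2 CPM with DMSO, a ratio of means of 2.14. Slc28a2 had 6.75 and 8.42 CPM with TBBPA, against 2.84 and 3.06 CPM with DMSO, a ratio of 2.57. The ratio of the 100 nM to the 10 nM library was 1.71 for Cdx2 and 1.69 for S100g. It was 1.25 for Slc28a2 and 1.15 for Cym, and 0.98 to 1.01 for Pga5, Nepn and Isx. Each dose is 1 library at a day, so these dose ratios have no replicate.

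The estimated counts of Slc28a2 depend on a near-identical neighbour. Slc28a2b, which lies on chromosome 2 like Slc28a2, was listed as well, and Slc28a2 had a whole-number count in 3 of the 20 libraries that list it. The other 6 genes had whole-number counts in every library that lists them, so their reads were not shared between genes in this way. The sum of the 2 copies was 8.09 and 9.60 CPM with 10 nM and 100 nM TBBPA at day 28, against 3.55 and 3.84 CPM with DMSO. The summed level therefore lay above DMSO in both TBBPA libraries too.

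**Figure D2:**
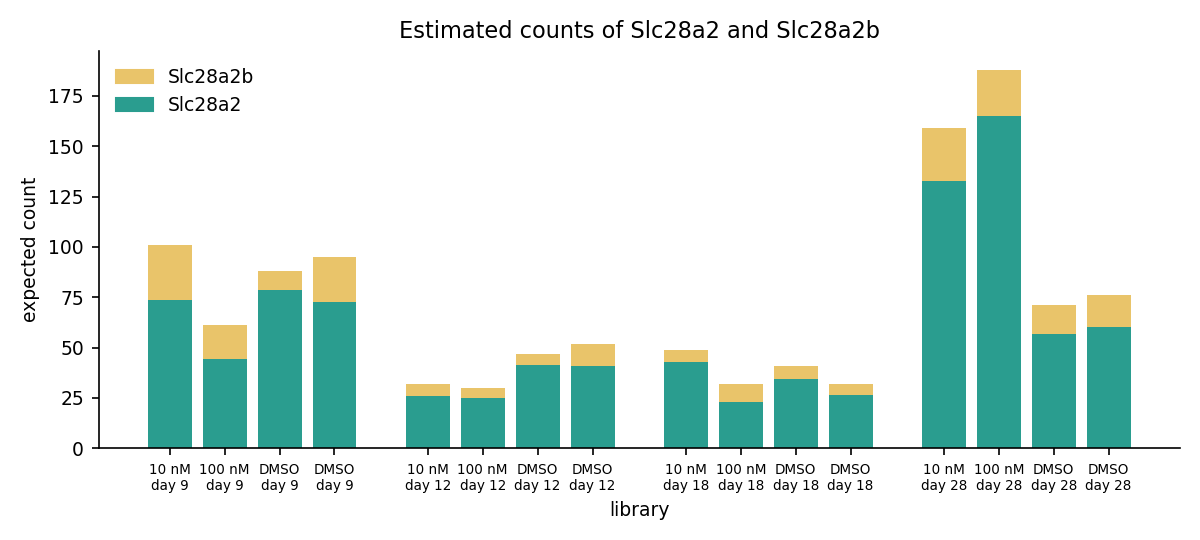
Expected counts of Slc28a2 (green) and Slc28a2b (yellow) stacked for each library from day 9 to day 28, with the TBBPA libraries of a day left of its DMSO libraries. Slc28a2 holds most of the sum in every library, and the sums of 159 and 188 with TBBPA at day 28 exceed all others.

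Compared per transcript length (FPKM), S100g and Pga5 were the most abundant of the 7 genes at day 28. With TBBPA, S100g lay between 83.9 and 142 FPKM and Pga5 between 102 and 105 FPKM, so that their order was not resolved. With DMSO, S100g (51.2 to 56.4 FPKM) lay just above Pga5 (48.7 to 48.9 FPKM). Below them with TBBPA came Isx (5.87 to 5.95 FPKM) and Nepn (4.81 to 4.87), then Cdx2 (2.55 to 4.34) and Slc28a2 (2.56 to 3.38), which overlapped, and last Cym (1.84 to 2.11). With DMSO, Cym was in the next place after Pga5 at 8.17 to 8.82 FPKM, ahead of Isx (2.72 to 2.97), Nepn (2.27 to 2.39), Cdx2 (1.72 to 2.26) and Slc28a2 (1.16 to 1.24).

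The 7 genes reached these levels along different courses in the DMSO libraries. In ES cells only Pga5 was clearly detected, with 1.96 and 2.37 CPM. Cdx2 had 7 and 1 counts, S100g 3 and 0, Nepn 1 and 0, and Cym, Isx and Slc28a2 had none. The day 4 DMSO libraries differed little from this. S100g (5 and 9 counts against 3 and 0) and Slc28a2 passed edgeR's quasi-likelihood test at an adjusted p of 0.0222 and 0.00297. Of all genes tested, 62.3% passed at this step, which also brought in the vehicle. The S100g call was lost without ES replicate 2 (adjusted p = 0.209) or without day 4 DMSO replicate 2 (0.162).

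**Figure D3:**
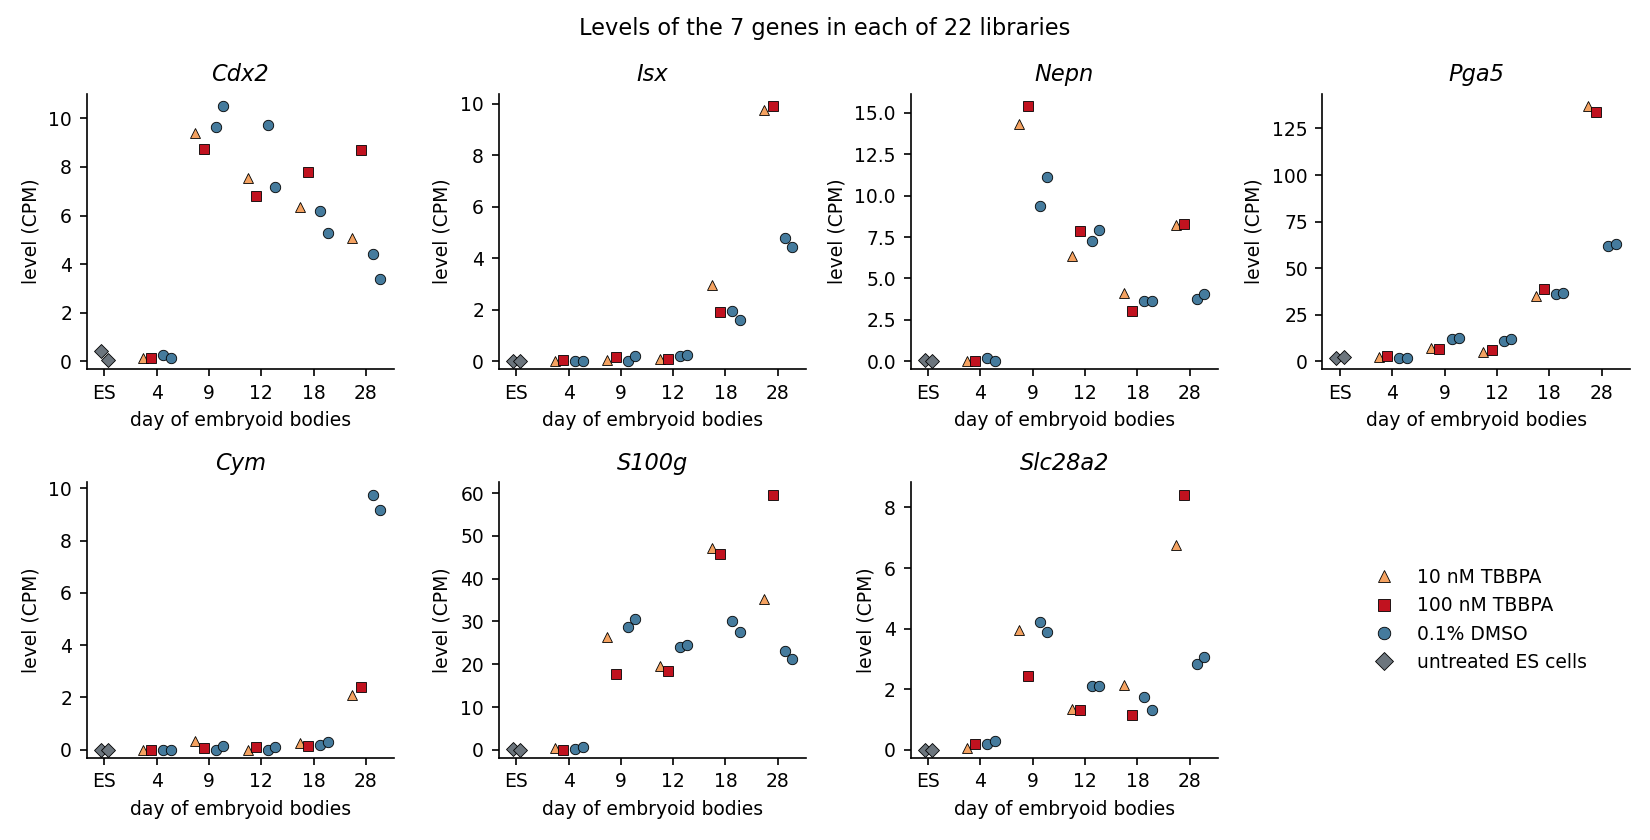
Level in CPM of each gene by day, with 1 point per library: 10 nM and 100 nM TBBPA left of the 2 DMSO libraries of the day, and untreated ES cells at the far left of each panel. S100g, Nepn and Cdx2 appear by day 9, whereas Isx and Cym stay near 0 until day 18 and day 28.

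By day 9, 5 of the 7 genes had risen over day 4 in the DMSO libraries, where 31.9% of all 16203 genes rose and 28.9% fell. S100g had 28.6 and 30.6 CPM at day 9, against 0.301 and 0.541 CPM at day 4 (log2 change 6.11 ± 0.23 SE, edgeR adjusted p = 3.17e-11). Nepn had 9.36 and 11.1 CPM at day 9, against 0.181 and 0 CPM at day 4. Cdx2 had 9.63 and 10.5 CPM at day 9, against 0.241 and 0.12 CPM at day 4 (log2 change 5.74 ± 0.40, adjusted p = 2.31e-08, from 4 and 2 counts at day 4). Pga5 rose to 11.9 and 12.7 CPM, against 1.51 and 1.98 CPM at day 4 (2.81 ± 0.15, adjusted p = 1.36e-09). Slc28a2 reached 4.23 and 3.89 CPM at day 9, against 0.181 and 0.301 CPM at day 4 (4.04 ± 0.33, adjusted p = 2.07e-07), and its day 4 level rests on 3 and 5.01 estimated counts. Cym and Isx, with at most 4 counts in a day 9 DMSO library, did not pass. Isx passed without day 9 DMSO replicate 1 (adjusted p = 0.0179) and without the ES libraries (0.0473).

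Between days 9 and 12 only Slc28a2 passed among the 7 genes, where 17.5% of all genes rose and 15.6% fell. It had 2.11 and 2.10 CPM at day 12, against 4.23 and 3.89 CPM at day 9 (log2 change -0.95 ± 0.21, edgeR adjusted p = 0.00393), and DESeq2 did not call it (adjusted p = 0.0829). By day 18, Pga5 and Isx had risen over day 12, where 20.7% of all genes rose. Pga5 had 36.1 and 36.6 CPM at day 18, against 10.9 and 12.2 CPM at day 12 (1.66 ± 0.10, adjusted p = 1.6e-08). Isx had 1.96 and 1.59 CPM at day 18, against 0.204 and 0.256 CPM at day 12, from 39 and 32 counts against 4 and 5 (adjusted p = 0.00055). Nepn fell to 3.66 and 3.67 CPM, against 7.28 and 7.93 CPM at day 12 (-1.04 ± 0.20, adjusted p = 0.00109), where 17.1% of all genes fell. Cdx2 had 6.17 and 5.26 CPM at day 18, against 9.72 and 7.16 CPM at day 12, and did not pass (adjusted p = 0.0575).

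The DMSO means of day 28 and day 18 are given without a test, because the day 28 libraries chose the genes. Cym averaged 9.45 CPM at day 28 against 0.249 CPM at day 18, a ratio of 37.9 from 195 and 181 counts against 4 and 6. The day 28 over day 18 ratio was 2.61 for Isx, 1.94 for Slc28a2 and 1.72 for Pga5. It was 1.07 for Nepn, 0.769 for S100g and 0.682 for Cdx2. Cdx2 and S100g were thus higher with TBBPA on a day when their DMSO levels were below those of day 18, whereas Isx and Pga5 were at their highest DMSO levels.

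Before day 28 the TBBPA libraries differed from DMSO for few of the 7 genes, and not always in the later direction. At day 4 none passed, where 0.458% of all 16383 genes did. At day 9, Pga5 fell with TBBPA to 7.14 CPM at 10 nM and 6.60 CPM at 100 nM, against 11.9 and 12.7 CPM with DMSO. Both TBBPA libraries lay below both DMSO libraries. The log2 change was -0.84 ± 0.12 (edgeR adjusted p = 0.000239), where 1.37% of all genes rose and 0.964% fell. With each DMSO pair summed to 1 library the log2 change stayed at -0.84 and the call was lost (adjusted p = 0.0995), in a setting in which edgeR called 0 genes at day 9 and 917 had an unadjusted p under 0.05.

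At day 12, Pga5 fell again, to 5.19 and 6.25 CPM with 10 nM and 100 nM TBBPA, against 10.9 and 12.2 CPM with DMSO. The log2 change was -1.02 ± 0.12 (edgeR adjusted p = 3.07e-06), where 11.9% of all genes rose and 9.19% fell. This call was kept under all 18 alternatives, with adjusted p-values up to 0.00246. At day 18 the groups met, with 35.2 and 38.6 CPM with TBBPA and 36.1 and 36.6 CPM with DMSO (0.02 ± 0.08, adjusted p = 0.929). The TBBPA effect on Pga5 differed between days 4, 9, 12 and 18 (adjusted p = 0.000159, where 5.52% of all genes passed). In the setting with DMSO pairs summed this too was lost (adjusted p = 0.135). Pga5 was thus below DMSO at days 9 and 12, level with it at day 18 and above it at day 28.

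Other lists moved on the days of the Pga5 calls. Of all genes, 1.37% rose and 0.964% fell at day 9, and 11.9% rose and 9.19% fell at day 12. At day 12, 11 of 18 tested genes of yolk sac and liver fell with TBBPA and none rose, and their summed level was 746 to 863 CPM with TBBPA against 1590 to 1620 CPM with DMSO. At day 9, 2 of these 18 fell (1070 to 1540 CPM against 1680 to 1730 CPM), and 6 of 15 trophoblast genes fell (156 to 161 CPM with TBBPA against 275 to 280 CPM with DMSO). At day 12, 6 of the 15 trophoblast genes fell (140 to 161 CPM against 243 to 252 CPM), and of 8 pluripotency genes 7 fell and 1 rose (927 CPM in both TBBPA libraries against 1200 to 1240 CPM). Their part in the Pga5 result was not tested. Of the 18 yolk sac and liver genes, Serpina1a alone stayed under 1 CPM in every library.

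S100g was the other gene called before day 28. At day 18 it had 47.2 and 45.7 CPM with 10 nM and 100 nM TBBPA, against 30.2 and 27.5 CPM with DMSO. The groups did not overlap, and the log2 change was 0.69 ± 0.20 (edgeR adjusted p = 0.0418), where 5.96% of all genes rose and 4.56% fell. This call was kept under 5 of 18 alternatives, although the log2 change stayed between 0.62 and 0.76. It was lost without either day 18 DMSO library (adjusted p = 0.147 without replicate 1 and 0.240 without replicate 2) and with either dose alone (0.139 at 10 nM, 0.161 at 100 nM). At days 9 and 12, S100g was below DMSO with TBBPA in both libraries, at -0.42 ± 0.21 and -0.36 ± 0.22, and did not pass (adjusted p = 0.450 and 0.282). The difference of its TBBPA effect between days 4 to 18 missed the threshold in edgeR (adjusted p = 0.0797) and passed in DESeq2 (0.00314).

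The remaining genes passed at no day before day 28. Nepn had 14.3 and 15.4 CPM with TBBPA at day 9, against 9.36 and 11.1 CPM with DMSO (log2 change 0.53 ± 0.18, edgeR adjusted p = 0.153). Cdx2 changed by -0.15 ± 0.22 at day 9, -0.23 ± 0.23 at day 12 and 0.31 ± 0.23 at day 18, each within 1.5 SE of 0 and none of them a call. Slc28a2 had 1.34 and 1.31 CPM with TBBPA at day 12, against 2.11 and 2.10 CPM with DMSO (-0.66 ± 0.31, adjusted p = 0.151). Isx had 2.95 and 1.91 CPM with TBBPA at day 18, against 1.96 and 1.59 CPM with DMSO, and the groups overlapped. Cym stood at 5 and 3 counts with TBBPA at day 18, against 4 and 6 with DMSO, and the groups overlapped.

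**Figure D4:**
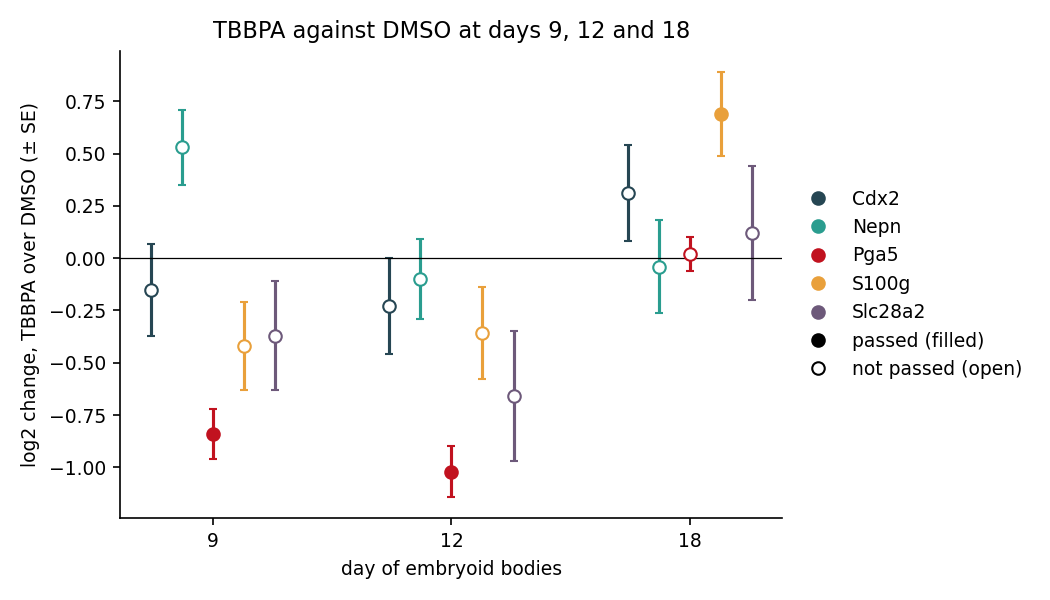
Log2 change of TBBPA over DMSO with its SE for the 5 genes with enough counts at days 9, 12 and 18, from edgeR; filled points passed at an adjusted p of 0.05. Pga5 is below 0 at days 9 and 12 and at 0 on day 18, and S100g is above 0 at day 18.

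Averaged over days 4 to 18, none of the 6 genes tested passed for TBBPA against DMSO, where 22.8% of all 15792 genes did. Pga5 was nearest, with a mean log2 change of -0.42 ± 0.15 (edgeR adjusted p = 0.051), and it passed in DESeq2 (0.0262). The mean difference between 100 nM and 10 nM over these days passed for none of the 6 genes. For Slc28a2 it was -0.53 ± 0.23 (adjusted p = 0.887). For this dose difference edgeR called 0 of 15792 genes, with 874 at an unadjusted p under 0.05, and DESeq2 called 6.

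Other genes of the same organs and pathways were tested at day 28, where 3.65% of all 16383 genes rose and 3.44% fell. Of 17 other stomach genes tested, 3 rose with TBBPA and none fell. Gkn1, gastrokine 1 of the gastric surface epithelium, had 61.1 and 50.4 CPM with 10 nM and 100 nM TBBPA, against 32.4 and 33.6 CPM with DMSO (log2 change 0.76 ± 0.12, edgeR adjusted p = 0.00108). Its relative Gkn2 had 133 and 103 CPM with TBBPA, against 76.0 and 75.3 CPM with DMSO (0.65 ± 0.15, adjusted p = 0.0159). Pgc, pepsinogen C, had 7.43 and 15.8 CPM with TBBPA, against 5.80 and 6.02 CPM with DMSO (0.97 ± 0.23, adjusted p = 0.0129). The 100 nM library carried most of the Pgc change. Muc5ac, a gastric mucin, had 0.865 and 0.715 CPM with TBBPA, against 2.0 and 2.63 CPM with DMSO, and did not pass (adjusted p = 0.0652). The median log2 change of the 17 genes was -0.13, and that of all genes tested 0.01.

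The summed level of the stomach genes was 245 to 274 CPM with TBBPA, against 181 to 185 CPM with DMSO. Most of this sum in each library came from Gkn1, Gkn2 and Pgc, the genes that passed. It is therefore not a rise across the list, whose median log2 change was -0.13. Without either day 28 DMSO library 1 of the 17 passed, which was Gkn1, and with the DMSO pair summed none did. In that setting edgeR called 6 genes in all at day 28. Among the aspartic proteases other than Pga5 and Cym, Pgc was the only one of 7 tested to pass. Ctse, cathepsin E, which did not pass, had 0.611 and 0.358 CPM with TBBPA, against 0.700 and 1.42 CPM with DMSO.

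Of 25 other intestine genes tested at day 28, none rose and 1 fell. Anpep, the brush border aminopeptidase N, which many other cell types also express, had 81.2 and 82.1 CPM with TBBPA and 103 CPM in both DMSO libraries (log2 change -0.34 ± 0.10, edgeR adjusted p = 0.0436). Without either DMSO library no intestine gene passed. The summed level of the intestine genes was 158 to 164 CPM with TBBPA, against 186 to 187 CPM with DMSO. Anpep alone held most of this difference. The median log2 change of the list was -0.19. Vil1, villin of the brush border, had 5.0 and 4.66 CPM with TBBPA and 4.06 and 4.05 CPM with DMSO. No tested gene of this list thus passed in the direction of Cdx2, Isx and S100g, which the choice of those genes had fixed. Genes on other lists rose (below). Ihh was among 9 of 23 gut tube endoderm genes that did so. Trpv6 was the only 1 of 10 calcium and vitamin D genes.

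The same list stood differently at day 12, when 4 of the 25 intestine genes fell and 1 rose, against 9.19% and 11.9% of all genes. Vil1 had 11.9 and 10.7 CPM with TBBPA, against 24.4 and 23.8 CPM with DMSO (-1.09 ± 0.15, edgeR adjusted p = 1.7e-05). Gpa33, an intestinal surface antigen, changed by -0.82 ± 0.17 and Krt20 by -0.80 ± 0.20. Lgr5, a marker of intestinal stem cells that other embryonic tissues also express, had 6.19 and 6.69 CPM with TBBPA, against 3.38 and 4.14 CPM with DMSO (0.77 ± 0.21, adjusted p = 0.0132). The calls of Lgr5 and Krt20 were lost without day 12 DMSO replicate 1, without the 100 nM library and with the DMSO pair summed. Over all alternatives the log2 change of Lgr5 lay between 0.39 and 0.93.

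Of the gut tube endoderm list, which holds general endoderm factors and epithelial proteins, 9 of 23 genes rose with TBBPA and none fell, with a median log2 change of 0.31. Ihh, a hedgehog ligand of the gut epithelium, had 41.1 and 43.7 CPM with 10 nM and 100 nM TBBPA, against 20.2 and 22.1 CPM with DMSO (1.0 ± 0.12, edgeR adjusted p = 4.48e-05). Sox17, an endoderm factor that endothelium also expresses, had 135 and 132 CPM with TBBPA, against 85.2 and 89.0 CPM with DMSO (0.62 ± 0.08, adjusted p = 9.33e-05). Gata4, a factor of endoderm and heart, rose by 0.64 ± 0.11 on the log2 scale. None of the 9 passed with the DMSO pair summed. At day 12, in contrast, 14 of the 23 fell and 4 rose, against 9.19% and 11.9% of all genes. The median was -0.56, where that of all genes was 0.03. Summed, the list stood at 2440 to 2560 CPM with TBBPA against 2070 to 2100 CPM with DMSO at day 28, and at 1560 to 1760 CPM against 2230 to 2280 CPM at day 12. None of its genes stayed under 1 CPM in every library, and its part in the levels of the 7 genes was not tested.

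**Figure D5:**
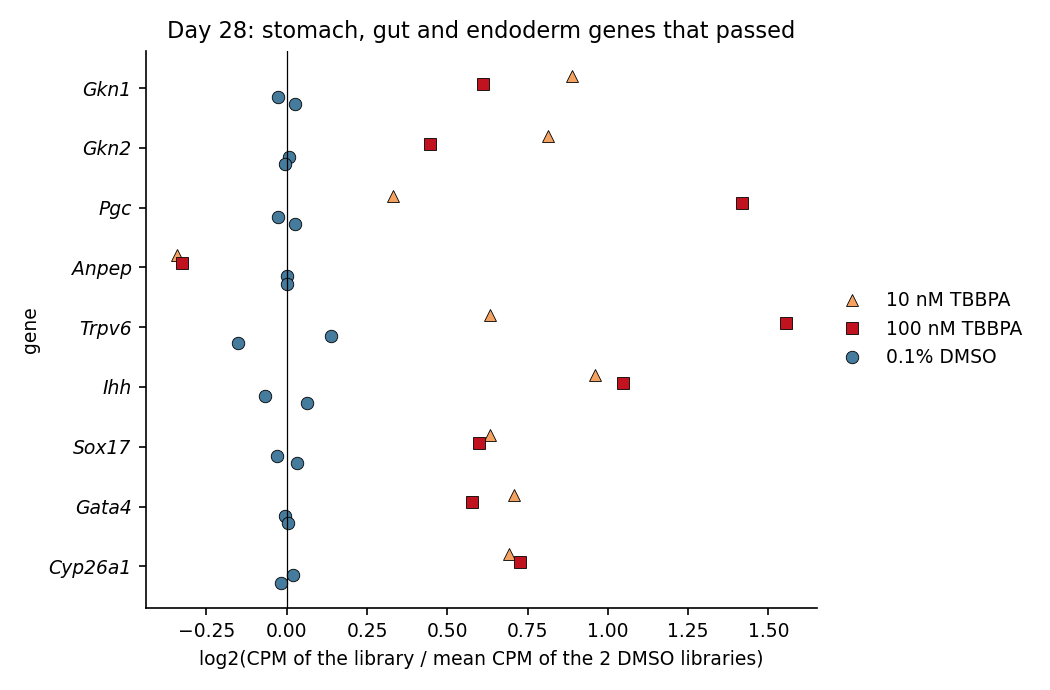
Level at day 28 of 9 genes outside the 7 that passed edgeR's test, as log2 of CPM over the mean of the 2 DMSO libraries, with 1 point per library. Anpep lies below 0 with TBBPA and the other 8 above, and the doses are furthest apart in Pgc and Trpv6.

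Of the genes around S100g, Trpv6 passed. Trpv6 is the apical calcium channel of the intestine, through which calcium enters before calbindin binds it. It had 4.02 CPM at 10 nM and 7.61 CPM at 100 nM TBBPA at day 28, against 2.85 and 2.33 CPM with DMSO (log2 change 1.17 ± 0.28, edgeR adjusted p = 0.0141). At day 18 it had 5.70 and 4.13 CPM with TBBPA, against 2.41 and 2.68 CPM with DMSO (0.95 ± 0.28, adjusted p = 0.0342). It was the only one of 10 tested calcium and vitamin D genes to pass on either day, the days on which S100g was also higher. Both Trpv6 calls were lost in DESeq2 and without either DMSO library of the day. Vdr, the vitamin D receptor, had 12.2 and 10.3 CPM with TBBPA at day 28, against 12.2 and 11.6 CPM with DMSO. Cyp24a1, an enzyme that vitamin D induces, stayed at or under 0.764 CPM in every library.

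The lists around the other genes held few calls at day 28. None of 6 nucleoside transporters other than Slc28a2 passed, and Slc28a1 had 4.84 and 4.99 CPM with TBBPA against 4.85 and 4.57 CPM with DMSO. None of 10 carotenoid and retinoid genes, which include targets of Isx, passed. On that list Bco1 was at or under 0.269 CPM at day 28, too low for a change to be seen. Of 13 leucine-rich proteoglycans, the structural relatives of Nepn, Ogn fell (-0.41 ± 0.12, edgeR adjusted p = 0.0412) and none rose. Their median log2 change was -0.41, and their summed level was 1160 CPM in the lower TBBPA library, against 1620 to 1630 CPM with DMSO, with no overlap of the groups. At day 18, where 4.56% of all genes fell, 7 of the 13 fell (245 to 390 CPM with TBBPA against 600 to 606 CPM with DMSO). The part of this list in the levels of the 7 genes was not tested. Of 16 posterior body genes, which include Hox genes and other Cdx targets, Cyp26a1, a retinoic acid hydroxylase, rose to 38.8 and 39.7 CPM with TBBPA, against 24.3 and 23.7 CPM with DMSO (0.71 ± 0.10, adjusted p = 0.000281). The others did not pass. The Cyp26a1 call was lost with the DMSO pair summed, and that of Ogn also without either DMSO library. Cdx1, the nearest relative of Cdx2 on the lists, had 0.764 and 0.817 CPM with TBBPA, against 0.450 and 0.859 CPM with DMSO.

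Markers of other cell types also held calls at day 28, where 3.65% of all genes rose and 3.44% fell. Of 15 trophoblast genes, 2 fell (summed 166 to 176 CPM with TBBPA against 216 to 221 CPM with DMSO). Krt7 reached 143 CPM at day 28, and no other gene of this list exceeded the 25.7 CPM of Rhox6 on that day. The trophoblast sum is therefore not a level shared across the list. Of 16 genes of squamous epithelium, 3 rose and 1 fell (1340 to 1390 CPM against 1250 to 1320 CPM). The stomach list, for comparison, had 3 of 17 higher. Of 18 yolk sac and liver genes, 2 rose (376 to 389 CPM against 345 to 351 CPM). Gut mesenchyme had 1 of 14 lower (178 to 179 CPM against 203 to 204 CPM), and pancreas and lung 1 of 8 lower (67.4 to 88.1 CPM against 85.2 to 86.2 CPM, so that the sums overlapped). Pluripotency genes had 1 of 8 higher (735 to 810 CPM against 727 to 729 CPM). The part of these lists in the levels of the 7 genes was not tested.

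Likeness to other genes was measured as Pearson's r of log2(CPM + 1) over the 22 libraries, which share days and controls, and is given without a test. Among the 7 genes, Nepn and Cdx2 (r = 0.956), S100g and Cdx2 (0.953) and Pga5 and Isx (0.929) were most alike. Over the 18 libraries without day 28 these were 0.961, 0.969 and 0.863, and Slc28a2 was closer to Nepn (0.942) and to Cdx2 (0.923) than Pga5 was to Isx. Cym was least like Cdx2 over the 22 libraries (0.154), which include the day 28 libraries that chose both genes. Without day 28, Cym and Cdx2 had 0.537, and Cym was least like Nepn (0.486). Beyond the 7 and over the 22 libraries, S100g was nearest to Cited1 (0.993), Efnb1 (0.982) and Wnk4 (0.980). Cdx2 was nearest to Msx2 (0.985), Zfp711 (0.983) and Zbtb16 (0.980). Zbtb16 was also nearest to Nepn (0.976), followed by Rbp4 (0.966) and Bmp2 (0.963). Pga5 was nearest to Cacna1d (0.979), the gastrokine gene Gkn2 (0.978) and Fxyd3 (0.977).

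Isx was nearest to Dpcr1 (0.989), Gabbr2 (0.987) and Slc14a1 (0.987), and Cym to Agr3 (0.988), Itgax (0.988) and Cyp2b10 (0.983), of which none exceeded 2.97 CPM. Slc28a2 had the lowest likeness to its nearest genes, 2810459M11Rik (0.942), Cttn (0.929) and Lgmn (0.927). Without day 28, the nearest were Six3 for S100g (0.996), Msx2 for Cdx2 (0.990), Pappa for Nepn (0.984), Cacna1d for Pga5 (0.980), Gper1 for Isx (0.992) and Cttn for Slc28a2 (0.968). For Cym, which had at most 6 counts in those libraries, it was Optc (0.845). Cacna1d and Msx2 kept the first place with and without day 28.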

How the data were processed

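RNA of 22 libraries of J1 mouse cells was analysed from 1 deposited table per library. Each deposited table gives an expected count (an estimate of reads) and an FPKM value per gene, per the file headers. Whole numbers made up 64.9 to 66.7% of the expected counts in a library, and the lowest FPKM deposited was 0.01. Reads were aligned with HISAT and Bowtie2 to GRCm38.p5, per the submitters' processing notes, and what counted the reads is not given in the sources that were used. Genes absent from a library's table were set to 0. Without a stated strand setting, counts of genes that overlap on opposite strands are uncertain.

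Rounded expected counts went into robust quasi-likelihood F tests of edgeR 4.0.16 (R 4.3.3) with TMM scaling and filterByExpr (minimum count 10, minimum total 15). Benjamini-Hochberg adjustment ran across every gene of a fit, and 0.05 was the threshold. The control steps were fitted on 12 control libraries. The TBBPA effects were fitted on all 22, with both doses of a day as 1 group. The means over days 4 to 18 were fitted on the 16 libraries of those days with the day as a factor. An SE is the log2 change over the square root of F, and FPKM was used to compare levels between genes. No fold is given against a group in which every library had 3 counts or fewer.

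The 7 genes and the gene lists were chosen with earlier results of these data known. Named are the 7 genes, Pou5f1 and Nanog, up to 4 list genes of smallest p in a comparison, and the 3 genes of highest r. Ctse, Vdr, Cyp24a1, Slc28a1, Bco1, Cdx1, the day 28 value of Vil1, Serpina1a, the scarce markers and the abundant ones beside them were added after their values were seen. Alternatives were DESeq2 1.42.0, other scalings and filters, limma 3.58.1 on log2(FPKM + 1), filtered at 1 FPKM in 2 libraries or unfiltered, and on log2(FPKM + 0.1), fewer libraries and single doses. The settings without the ES libraries and with DMSO pairs summed were chosen after seeing the data. Fits were tested on simulated data. Promoter windows are RefSeq's. Figures were drawn with matplotlib 3.10.9.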

Additional observations from a re-analysis of the deposited data

Results flagged for a closer look

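The TBBPA effect on Pga5 differed between days 4, 9, 12 and 18 by the interaction test of edgeR (adjusted p = 0.000159). Beyond that test, Pga5, S100g, Slc28a2, Cdx2 and Isx lay on opposite sides of DMSO at day 28 and at an earlier day, with no overlap of the groups on either day. This difference was not tested, because day 28 chose the genes. All of days 4 to 18 were searched, and the share of all genes with such a pattern was not counted. Nothing is therefore read from the number of genes. Pga5 had a log2 ratio of TBBPA over DMSO of -0.84 at day 9 and -1.02 at day 12, against 1.12 at day 28. S100g had -0.42 at day 9 and -0.36 at day 12, against 1.10 at day 28. Slc28a2 had -0.67 at day 12, against 1.36 at day 28, and Cdx2 had -0.15 at day 9, against 0.82 at day 28. Isx had 2 counts in both TBBPA libraries at day 12, against 4 and 5 with DMSO, too few for a ratio. The group means behind them were 9.06 CPM with TBBPA and 10.0 CPM with DMSO for Cdx2 at day 9, and 1.32 CPM with TBBPA and 2.10 CPM with DMSO for Slc28a2 at day 12.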

How the results depend on the processing

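The choice of the 7 genes fixed their sides of DMSO at day 28, so no alternative bears on that day. At the other days the counts of the 7 genes that passed moved as follows. For ES to day 4 (2) it was 1 with limma on log2(FPKM + 1), filtered or not, and 0 with only the 4 libraries compared. For day 9 to 12 (1) it was 0 in DESeq2, 2 in both limma settings on log2(FPKM + 1), and 3 with the 4 libraries alone or without the ES libraries. For day 12 to 18 (3) it was 5 in filtered limma on log2(FPKM + 1) and with the 4 libraries alone, and 6 without the ES libraries. With TBBPA at day 9 (1) it was 2 in both limma settings on log2(FPKM + 1) and with the 4 libraries alone, and 0 with DMSO pairs summed. At day 12 (1) it was 3 with the 4 libraries alone. At day 18 (1) it was 0 with library size alone, no filter, all limma settings, 10 nM or 100 nM alone, without the ES libraries or with DMSO pairs summed. The difference between days (1) gave 2 in DESeq2, in filtered limma on log2(FPKM + 1) and without the day 28 libraries, and 0 with DMSO pairs summed. The mean over days (0) gave 1 in DESeq2, with library size alone, the stricter filter or without day 4, and 2 without day 18.

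Of the stomach genes (3 passed at day 28), 1 passed in limma on log2(FPKM + 0.1), 5 in unfiltered limma on log2(FPKM + 1) and 0 with DMSO pairs summed. Of the intestine genes (1 passed), 0 passed in DESeq2, limma on log2(FPKM + 0.1), at 10 nM alone or with DMSO pairs summed, 2 at 100 nM alone or without the ES libraries, 3 in filtered and 4 in unfiltered limma on log2(FPKM + 1). Leaving out 1 library in turn gave 1 to 2 for ES to day 4, 5 to 6 for day 4 to 9, 1 for day 9 to 12, 3 to 4 for day 12 to 18, 0 at day 4, 1 at days 9 and 12, 0 at day 18, 1 to 2 between days, 0 to 1 for the mean, 0 between doses, 1 to 2 stomach genes and 0 to 2 intestine genes. Over all genes, calls ranged over the alternatives from 0 to 663 at day 4 (75 in the fit reported), 0 to 771 at day 9 (383), 781 to 5223 at day 12 (3452), 172 to 2602 at day 18 (1723), 6 to 2074 at day 28 (1162), 0 to 2080 between days (904), 1359 to 3702 for the mean (3608), 3236 to 8056 for day 9 to 12 (5361) and 4141 to 8653 for day 12 to 18 (6110). The cause was not tested. Among the 7 genes, no called direction reversed.

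Replicate numbers did not pair the control libraries: the correlation of replicate differences between neighbouring days was -0.007 to 0.028. With the replicate number as a block, 2, 5, 1 and 4 of the 7 genes passed in the 4 control steps, in order of time, against 2, 5, 1 and 3. Before day 18, Cym had at most 6 counts and Isx at most 5 in a library, so their values there have low precision.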
